A study of Homo sapiens with 10 samples.

Results

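The genes described here encode the proteins of the cytosolic ribosome. They were taken from the deposited count table by symbol, as RPL or RPS followed by a number and at most 1 letter A, X or L, together with RPLP0, RPLP1, RPLP2 and RPSA. That gave 81 of 58735 rows, namely 43 proteins of the large subunit, 31 of the small subunit, the 3 stalk proteins and 4 paralogs (RPL3L, RPL10L, RPL39L and RPS27L). The RNA came from a cell line that the submitters call HCMECs and label as endothelial cells of the human brain, without naming the line. The tested cells received an siRNA against USP9X (siUSP9X, 5 libraries), a deubiquitinase that removes ubiquitin from other proteins, and the reference cells a control siRNA (siCtrl, 5 libraries). Cells of both groups were transfected for 48 h and then given Wnt3a, a Wnt pathway ligand, for 12 h, so no library shows the cells without Wnt3a. The labels do not state that replicates are separate cultures, and p-values therefore measure only how these libraries scatter, part of which may be technical.

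The cytosolic ribosome has a small subunit, which binds initiation factors and decodes the mRNA, and a large subunit, which joins amino acids and carries the stalk that recruits elongation factors. Most of its protein subunits come from genes with a 5′ terminal oligopyrimidine (TOP) start, in which the transcript opens with a C followed by an uninterrupted run of C or T. Translation of mRNAs with this start depends on mTORC1 and on the binding protein LARP1. Free ribosomal proteins are unstable, and RPL5 and RPL11, bound to 5S rRNA, can inhibit the p53 ligase MDM2 when ribosome assembly is disturbed.

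The first bases of the transcripts are shown for genes whose values follow, since the TOP start is the sequence feature that most members share and that their choice by symbol did not use. Each line gives the 10 bases before and the 20 bases from the RefSeq start (GRCh38.p14, on the transcribed strand, 5′ to 3′), and capitals mark the run of C and T that begins with a C at the first transcribed base. RPS21, RPLP0, RPSA, RPS25 and RPL7A passed the test without siUSP9X replicate 2, as did RPS28, which has no such run at its annotated start, while RPL22 and RPS3A did not pass.
RPS21 (chr20:62387093-62387122, plus strand): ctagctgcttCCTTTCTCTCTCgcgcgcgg
RPLP0 (chr12:120201092-120201121, minus strand): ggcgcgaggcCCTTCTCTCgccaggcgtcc
RPSA (chr3:39406710-39406739, plus strand): tgccgcctgtCTTTTCCgtgctacctgcag
RPS25 (chr11:119018324-119018353, minus strand): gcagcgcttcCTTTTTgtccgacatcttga
RPL7A (chr9:133348208-133348237, plus strand): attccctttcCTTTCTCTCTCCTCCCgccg
RPS28 (chr19:8321486-8321515, plus strand): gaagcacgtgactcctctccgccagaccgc
RPL22 (chr1:6199576-6199605, minus strand): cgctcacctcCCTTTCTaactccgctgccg
RPS3A (chr4:151099618-151099647, plus strand): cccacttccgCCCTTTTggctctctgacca

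A TOP start, searched on the transcribed strand at the first base as a C followed by at least 4 bases that are each C or T, was found in 46 of the 64 members with a RefSeq window (71.9%). Of all 27305 genes with a window, 1404 (5.14%) had one. A run that begins beside the annotated first base, as in RPS28, was not counted in either share. Within the ribosomal protein genes, the start was present in 11 of 15 members that passed the test without siUSP9X replicate 2 (73.3%) and in 35 of 49 that did not (71.4%). The share with this start was thus close in both sets, which is a description with no test.

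Library totals ranged from 15958362 to 26467787 counts. USP9X itself had 36.5, 68.7, 27.5, 22.3 and 20.7 counts per 1000000 (CPM) in siUSP9X libraries 1 to 5, against 415, 283, 329.9, 323 and 351 CPM in siCtrl libraries 1 to 5. All siUSP9X libraries lay below all siCtrl libraries, and siUSP9X replicate 2 had the highest USP9X CPM of its group. Whether knockdown was weaker in that library, which deviates in other measures described below, was not tested. The fold change was -3.28 ± 0.32 (log2, SE), with an adjusted p of 0.000403 (edgeR quasi-likelihood test, Benjamini-Hochberg over all tested genes). The endothelial label was met only in part. Of 12 endothelial markers, ESAM, ENG and EGFL7 reached 10 CPM in at least 1 library of each group, ERG and FLT1 had 0 counts in every library, CDH5 was at most 1.12 CPM, and CLDN5, KDR, PECAM1, TEK, TIE1 and VWF stayed under 1 CPM. The summed endothelial markers ranged from 109 to 254 CPM in siUSP9X and from 236 to 299 CPM in siCtrl. Without siUSP9X replicate 2, which gave the 109 CPM, the log2 fold change was -0.39 for ENG, -0.61 for EGFL7 and 0.0040 for ESAM. The epithelial list, nearly all KRT8 and KRT18, ranged from 2029 to 2755 CPM in siUSP9X and from 3313 to 4173 CPM in siCtrl. Its lowest sum, too, was that of siUSP9X replicate 2. In that list CDH1, KRT5, KRT14 and KRT19 stayed under 1 CPM in every library, and EPCAM was at most 1.16 CPM. The part of these marker differences in the ribosomal protein results was not tested.

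Ribosomal protein mRNA took a smaller mean share of the siUSP9X libraries, and the gap was smaller without 1 of them. The 81 members held 4.71, 2.12, 4.87, 5.16 and 4.45% of all counts in siUSP9X replicates 1 to 5, against 4.82, 6.42, 5.45, 5.34 and 5.10% in siCtrl replicates 1 to 5. siUSP9X replicate 2 was far below every other library and siCtrl replicate 2 was the highest, while siUSP9X replicates 3 and 4 lay above siCtrl replicate 1, so the groups overlapped. The mean share was 4.26% ± 1.23 (SD, n = 5) in siUSP9X, 4.80% ± 0.296 (SD, n = 4) in siUSP9X without replicate 2 and 5.42% ± 0.609 (SD, n = 5) in siCtrl. Because siUSP9X replicate 2 was set aside for the measure under study, counts and fold changes of the members are given with and without it, and no p is given for the share. In bulk RNA such as this, fewer cells of a type and less RNA per cell cannot be told apart.

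**Figure D1:**
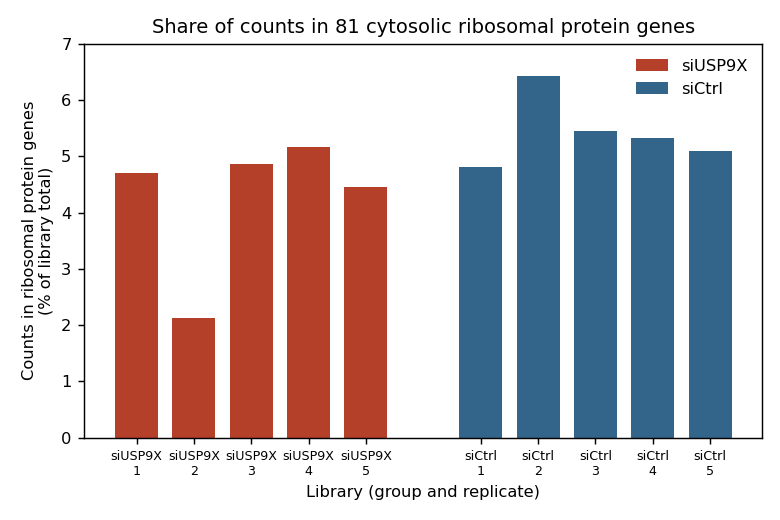
Share of each library's counts (%, vertical axis) in the 81 cytosolic ribosomal protein genes, with siUSP9X replicates 1 to 5 left of siCtrl replicates 1 to 5 and 1 bar per library. siUSP9X replicate 2 holds 2.12%, and the other 9 libraries lie between 4.45 and 6.42%.

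siUSP9X replicate 2 also stood apart in other measures. MT-RNR2, the mitochondrial large ribosomal RNA, made up 1.40% of its counts, where siUSP9X replicates 1, 3, 4 and 5 had 0.450 to 0.573% and siCtrl libraries 0.380 to 0.446%. Among genes other than members, those under 1000 bases made up 3.95%, where the 4 remaining siUSP9X libraries had 7.31 to 8.03% and siCtrl libraries 7.51 to 9.32%. Its count-weighted GC content over these genes was 47.4%, where the remaining siUSP9X libraries had 49.9 to 50.6% and siCtrl libraries 49.7 to 51.0%. The part of RNA quality in its low ribosomal share was not tested.

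The level of the members spread over a wide range that was set mostly by gene. Per kilobase of transcript, RPS2, which lines the mRNA entry channel, was highest at 1767 ± 750 CPM per kb (SD, n = 5) in siUSP9X and 2507 ± 446 CPM per kb (SD, n = 5) in siCtrl. It was followed in siCtrl by RPL41 at 2097 ± 298, RPSA at 2029 ± 337, RPL8 at 1958 ± 328 and RPLP0 at 1951 ± 243 CPM per kb (SD, n = 5 each), which did not differ from their neighbours in this order beyond their spread. RPL41 was named after its value was seen. The lowest tested member was RPS10, at 2.83 ± 0.909 CPM per kb (SD, n = 5) in siUSP9X and 2.48 ± 0.571 CPM per kb (SD, n = 5) in siCtrl. RPS10 is an obligatory part of the small subunit, and 58.1% of the counts over its row and its pseudogene and read-through rows lay outside its own row, and whether those counts come from RPS10 mRNA was not tested. For RPS28, 65.6% of such counts lay outside its own row, and for RPL9, 63.7%. The muscle paralog RPL3L had 11, 0, 9, 0 and 1 counts in siUSP9X and 6, 2, 9, 0 and 5 counts in siCtrl, and the testis paralog RPL10L had 0 counts in all 10 libraries. Neither passed the filter on low counts, which left 79 members for testing.

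With all 10 libraries, ribosomal protein genes were lower in siUSP9X on balance, but none passed the test. Of the 79 tested members, 75 had a log2 fold change below 0, with a median of -0.35 against 0.026 over all 13934 tested genes. The edgeR quasi-likelihood test with Benjamini-Hochberg adjustment over all tested genes called 0 members lower and 0 higher at an adjusted p under 0.05, where 3.22% of all tested genes were called lower and 4.09% higher. At an unadjusted p under 0.05, 15 members passed. DESeq2 called 3 lower (RPS21, RPLP0 and RPS27L), limma-voom called 0, and limma-voom with library weights, which gives a deviating library less say, called 37 lower. None of these tools called a member higher.

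Without siUSP9X replicate 2, the members were closer to siCtrl but the spread between libraries was much smaller, and 18 of 79 fell (22.8%), while 0 rose and 61 did not pass. Over all 14086 tested genes, 11.5% were called lower and 11.9% higher, so the share of members called lower was above that of all genes. The median log2 fold change of the members was -0.20, that is 13.0% lower, against 0.0072 over all tested genes, and 74 of 79 members were below 0. The median standard error of a member was 0.093 without siUSP9X replicate 2 and 0.19 with it. At an unadjusted p under 0.05, 42 members passed, and DESeq2 called 22 lower, limma-voom 14 and limma-voom with library weights 40, with 0 higher in each. In 3 members, RPLP0, RPS25 and RPL7A, all siUSP9X libraries lay below all siCtrl libraries, both with and without siUSP9X replicate 2. That is 3.80% of the tested members, less than the 6.85% of all genes with all libraries and the 9.48% without siUSP9X replicate 2. In 0 members did all siUSP9X libraries lie above all siCtrl libraries, where 7.79% of all genes with all libraries and 10.4% without siUSP9X replicate 2 did.

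**Figure D2:**
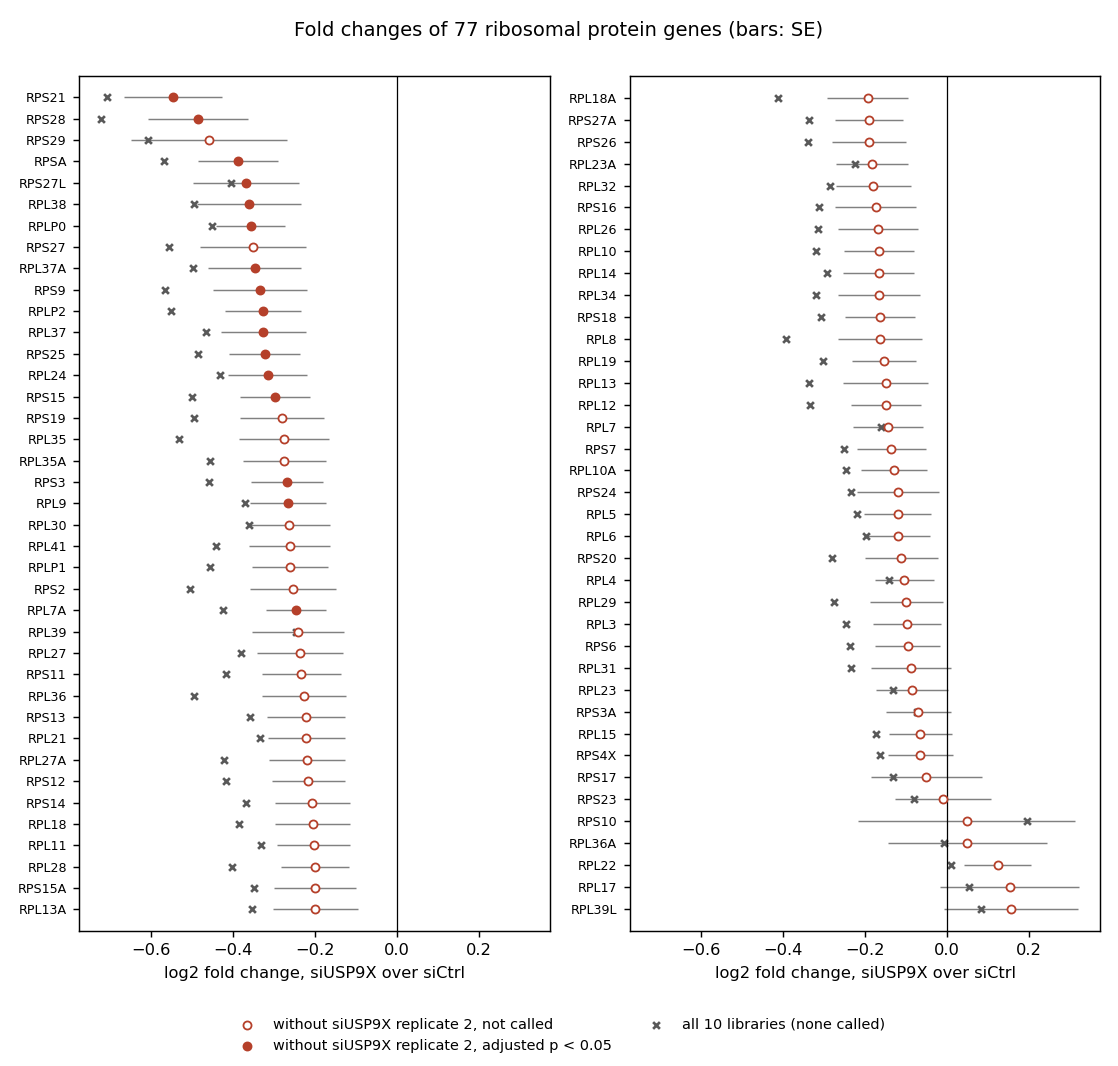
Log2 fold change of siUSP9X over siCtrl (horizontal axis) for 77 of the 79 tested members, ordered by the fit without siUSP9X replicate 2 (circles with SE bars, filled where adjusted p is under 0.05), with the fit of all 10 libraries as crosses. Most circles lie between -0.55 and 0, 16 are filled, and the crosses lie mostly to their left.

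Among small-subunit proteins, 9 of 31 fell without siUSP9X replicate 2 (29%, where 11.5% of all tested genes did), among them RPS21, RPS28, RPSA, RPS9, RPS25, RPS15 and RPS3. None rose, and the median log2 fold change was -0.22, and -0.37 with all libraries. RPS21, a protein that lies beside RPSA on the small subunit (ENSG00000171858.17, chr20:62387116-62388520, plus strand), had 289, 155, 337, 394 and 275 CPM in siUSP9X replicates 1 to 5, against 478, 596, 484, 377 and 433 CPM in siCtrl replicates 1 to 5. Only siUSP9X replicate 4 and siCtrl replicate 4 overlapped. Its log2 fold change without siUSP9X replicate 2 was -0.55 ± 0.12 (SE), a change of -31.5%, with an edgeR adjusted p of 0.00294, and it was the largest fall of any member. With all libraries it was -0.71 ± 0.22, with an edgeR adjusted p of 0.0698.

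RPSA, the laminin receptor protein that also sits on the small subunit (ENSG00000168028.13, chr3:39406689-39412542, plus strand), had 1738, 707, 1692, 1751 and 1645 CPM in siUSP9X, against 1743, 2742, 2261, 2376 and 2057 CPM in siCtrl. The lowest siCtrl library, replicate 1, lay beside the highest siUSP9X libraries, and the other siCtrl libraries were all higher. Without siUSP9X replicate 2 the log2 fold change of RPSA was -0.39 ± 0.10 (SE), with an edgeR adjusted p of 0.00798, and with all libraries it was -0.57 ± 0.23, with an edgeR adjusted p of 0.135. RPS25, which some viral and cellular mRNAs need for internal initiation (ENSG00000118181.10, chr11:119015712-119018691, minus strand), had 334, 163, 363, 368 and 317 CPM in siUSP9X, against 415, 516, 448, 394 and 390.3 CPM in siCtrl. The groups did not overlap, and the log2 fold change without siUSP9X replicate 2 was -0.32 ± 0.09 (SE), with an edgeR adjusted p of 0.0115. With all libraries RPS25 had -0.49 ± 0.20, with an edgeR adjusted p of 0.14. RPS28, which lies near the mRNA exit (ENSG00000233927.4, chr19:8321158-8323340, plus strand), had 49.9, 13.9, 56.8, 74.5 and 45.3 CPM in siUSP9X, against 83.1, 90.7, 79.4, 68.7 and 74.97 CPM in siCtrl. Its log2 fold change was -0.49 ± 0.12 (SE) without siUSP9X replicate 2, with an edgeR adjusted p of 0.00779, and -0.72 ± 0.32 with all libraries, with an edgeR adjusted p of 0.17. As above, most of the counts assigned to RPS28 and its copies lie outside this row.

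RPS9, RPS15 and RPS3 fell with log2 fold changes of -0.34, -0.30 and -0.27 and edgeR adjusted p of 0.0422, 0.0176 and 0.0352 without siUSP9X replicate 2. With all libraries they had -0.57, -0.50 and -0.46, with edgeR adjusted p of 0.245, 0.206 and 0.217. RPS3, which lines the mRNA entry channel, had 1308, 507, 1277, 1469.5 and 1218 CPM in siUSP9X, against 1342, 1886, 1593, 1631 and 1499 CPM in siCtrl, and only siUSP9X replicate 4 reached the siCtrl range. Members known from other work did not all pass. RPS19, the gene most often mutated in Diamond-Blackfan anaemia, had a log2 fold change of -0.28 ± 0.10 (SE), with an edgeR adjusted p of 0.0561 without siUSP9X replicate 2, and with all libraries -0.50 ± 0.28 (adjusted p 0.254). RPS27 had -0.35 ± 0.13 (edgeR adjusted p 0.0579) without siUSP9X replicate 2 and -0.56 ± 0.28 (adjusted p 0.207) with it, and RPS26 had -0.19 ± 0.09 (adjusted p 0.136) without it and -0.34 ± 0.18 (adjusted p 0.242) with it. RPS6, the substrate of S6 kinase, had 534, 298, 567, 588 and 515 CPM in siUSP9X, against 553, 698, 585, 553 and 559 CPM in siCtrl. Its log2 fold change was -0.10 ± 0.08 (SE), with an edgeR adjusted p of 0.415 without siUSP9X replicate 2, and with all libraries -0.24 ± 0.17 (adjusted p 0.358). RPS27A, made as a fusion with ubiquitin, had -0.19 ± 0.08 (edgeR adjusted p 0.104) without siUSP9X replicate 2 and -0.34 ± 0.17 (adjusted p 0.226) with it, and RPS4X had -0.07 ± 0.08 (adjusted p 0.592) without it and -0.16 ± 0.13 (adjusted p 0.416) with it.

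Of the 3 stalk proteins, RPLP0 and RPLP2 fell without siUSP9X replicate 2 and RPLP1 missed the threshold narrowly. RPLP0, which anchors the stalk (ENSG00000089157.15, chr12:120196686-120201235, minus strand), had 1723, 1163, 1693, 1721 and 1588 CPM in siUSP9X, against 1840.1, 2549, 2109.5, 2268 and 2016 CPM in siCtrl. Every siUSP9X library was below every siCtrl library, and the 4 siUSP9X libraries other than replicate 2 lay close together. The log2 fold change was -0.36 ± 0.08 (SE), a change of -21.9%, with an edgeR adjusted p of 0.00493 without siUSP9X replicate 2, and -0.45 ± 0.13 with an adjusted p of 0.0591 with it. RPLP2, which binds RPLP0 as a dimer with RPLP1, had 167, 50.4, 182, 203 and 160.4 CPM in siUSP9X, against 202, 269.6, 227, 210.4 and 209.7 CPM in siCtrl. Its log2 fold change was -0.33 ± 0.09 (SE), with an edgeR adjusted p of 0.016, and -0.55 ± 0.29 with all libraries, with an adjusted p of 0.226. RPLP1 had 390.2, 147, 407, 404 and 361 CPM in siUSP9X, against 390.2, 582, 472, 459.6 and 441 CPM in siCtrl, with a log2 fold change of -0.26 ± 0.09 (SE) and an edgeR adjusted p of 0.0502 without siUSP9X replicate 2, and -0.46 ± 0.24 with an adjusted p of 0.23 with all libraries.

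**Figure D3:**
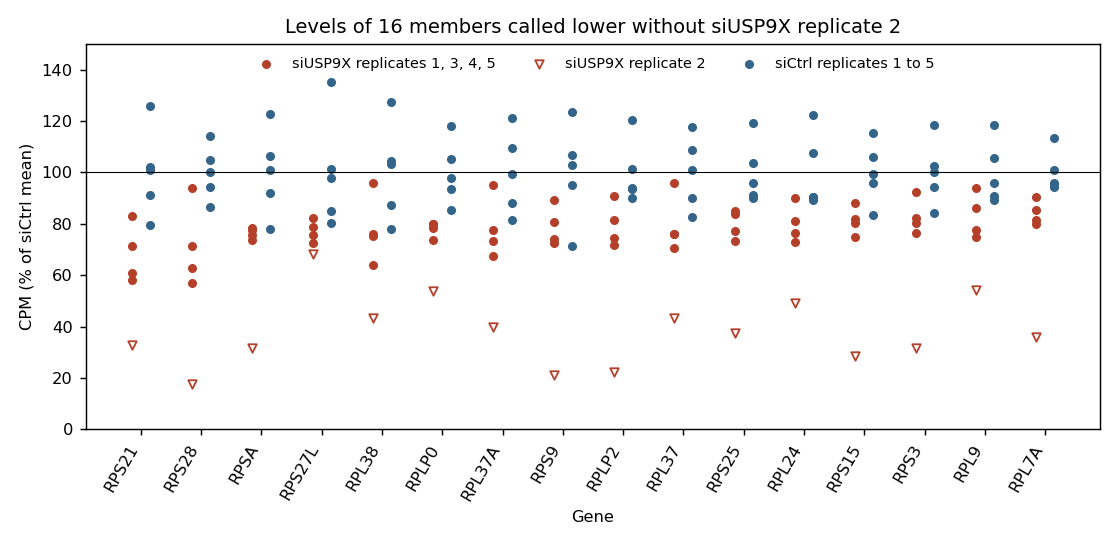
CPM of 16 of the 18 members that passed without siUSP9X replicate 2, as % of each gene's siCtrl mean (vertical axis), with siUSP9X libraries left of siCtrl libraries for each gene and siUSP9X replicate 2 as an open triangle. For RPLP0, RPS25 and RPL7A the siUSP9X points lie below all siCtrl points, and for the other genes the groups overlap.

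Of the 43 large-subunit proteins, 6 fell without siUSP9X replicate 2 (RPL38, RPL37A, RPL37, RPL24, RPL9 and RPL7A) and none rose. That is 14%, near the 11.5% of all tested genes called lower in that fit. The median log2 fold change was -0.18, and -0.33 with all libraries. Whether the small subunit, with 9 of 31 lower, and the large subunit, with 6 of 43, differ was not tested. RPL7A, a core protein of the large subunit (ENSG00000148303.16, chr9:133348214-133351426, plus strand), had 1143, 515, 1223, 1294 and 1166 CPM in siUSP9X, against 1357, 1627, 1354, 1449 and 1377 CPM in siCtrl. The groups did not overlap, although the fall was small, at -0.25 ± 0.07 on the log2 scale (SE) without siUSP9X replicate 2, with an edgeR adjusted p of 0.0214. With all libraries RPL7A had -0.42 ± 0.21, with an edgeR adjusted p of 0.203. RPL38, which in mice is needed for the translation of certain Hox mRNAs, had 147, 84.1, 146, 185 and 124 CPM in siUSP9X, against 202, 246, 199.6, 151 and 169 CPM in siCtrl, and siUSP9X replicate 4 lay above 2 of the siCtrl libraries. Its log2 fold change was -0.36 ± 0.13 (SE), with an edgeR adjusted p of 0.0466, and -0.50 ± 0.20 with all libraries, with an adjusted p of 0.136. RPL37A, RPL37, RPL24 and RPL9 had log2 fold changes of -0.35, -0.33, -0.32 and -0.27 without siUSP9X replicate 2, with edgeR adjusted p of 0.0336, 0.0316, 0.025 and 0.0458. With all libraries they had -0.50, -0.47, -0.43 and -0.37, with edgeR adjusted p of 0.141, 0.135, 0.114 and 0.134. As for RPS28, most of the counts assigned to RPL9 and its copies lie outside its own row.

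RPL5, RPL11 and RPL23, large-subunit proteins that can bind MDM2 outside the ribosome, did not pass in either fit. Other members with roles outside the ribosome were not examined as a set. RPL5 had 865, 589, 888, 919 and 840.3 CPM in siUSP9X, against 896, 1134, 1005, 873 and 869 CPM in siCtrl, with a log2 fold change of -0.12 ± 0.08 (SE) and an edgeR adjusted p of 0.311 without siUSP9X replicate 2, and -0.22 ± 0.13 (adjusted p 0.293) with all libraries. RPL11 had 596, 350.5, 602, 674 and 553 CPM in siUSP9X, against 689.9, 850.3, 679, 638 and 637 CPM in siCtrl, with -0.20 ± 0.09 (edgeR adjusted p 0.107) and, with all libraries, -0.33 ± 0.16 (adjusted p 0.205). RPL23, also an MDM2 binder, had -0.09 ± 0.09 (edgeR adjusted p 0.517) and, with all libraries, -0.13 ± 0.11 (adjusted p 0.442). Their partner MDM2, which is no ribosomal protein, had 71.3, 139, 69.7, 54.7 and 64.9 CPM in siUSP9X, against 118, 96.3, 91.2, 84.2 and 95.04 CPM in siCtrl. MDM2 was highest of all in siUSP9X replicate 2 and lowest in the other siUSP9X libraries, and its log2 fold change was -0.57 ± 0.10 without siUSP9X replicate 2 (edgeR adjusted p 0.000697) and -0.28 ± 0.23 with it (edgeR adjusted p 0.427). Without siUSP9X replicate 2, only MDM2 passed in edgeR of the 5 genes listed for this arm of the p53 response. None of the others had an edgeR unadjusted p under 0.05 there. On the same libraries limma-voom with library weights called 2 of the 5 lower.

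RPL22, which also binds viral and cellular RNA outside the ribosome, had the opposite sign to most members. It had 216, 144, 239, 228 and 241 CPM in siUSP9X, against 187, 249.7, 219.6, 202 and 203 CPM in siCtrl. Apart from siUSP9X replicate 2, its siUSP9X libraries lay within the siCtrl range and above siCtrl replicates 1, 4 and 5. Without siUSP9X replicate 2 the log2 fold change was 0.12 ± 0.08 (SE), with an edgeR adjusted p of 0.297, and with all libraries it was 0.0083 ± 0.15, with an adjusted p of 0.973. When every library was scaled to its own ribosomal protein counts, so that each gene is read as a part of the ribosomal protein pool, RPL22 passed with 0.33 (edgeR adjusted p 0.0229) and RPS21 with -0.35 (edgeR adjusted p 0.0401). On that scale no other member passed, and with all libraries RPL22 had 0.39 and RPS21 -0.37, neither past the threshold. The median of all tested genes on that scale was 0.20 without siUSP9X replicate 2, so gene values there are relative to the pool. RPL3, at the peptidyl transferase centre, and RPL10, which joins the subunit late, had log2 fold changes of -0.10 and -0.17 without siUSP9X replicate 2, RPL10A had -0.13 and RPL39, in the exit tunnel, had -0.24. With all libraries RPL3 had -0.25, RPL10 -0.32, RPL10A -0.25 and RPL39 -0.25. None of these values passed the threshold.

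Of the 2 paralogs that could be tested, RPS27L fell without siUSP9X replicate 2, with 19.1, 16.6, 18.4, 19.9 and 17.6 CPM in siUSP9X, against 24.6, 32.8, 23.7, 20.6 and 19.5 CPM in siCtrl. Its log2 fold change was -0.37 ± 0.13 (SE), with an edgeR adjusted p of 0.0462, and -0.41 ± 0.14 with all libraries, with an adjusted p of 0.103. For RPS27L siUSP9X replicate 2 stood only slightly below the other siUSP9X libraries. RPL39L had 4.76, 3.37, 4.63, 4.49 and 3.77 CPM in siUSP9X, against 3.13, 4.58, 4.67, 3.97 and 3.49 CPM in siCtrl, and its log2 fold change of 0.16 ± 0.16 without siUSP9X replicate 2 and 0.08 ± 0.17 with it did not pass. Neither RPS27L nor RPS28 had a TOP run at the first base of the RefSeq start, although in RPS28 a run of C and T begins at the next base.

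The calls rested on few libraries. RPS21, RPS28, RPSA and RPLP0 passed in each of the 9 edgeR fits that left out 1 further library besides siUSP9X replicate 2, and RPS25 passed in 8, RPLP2 and RPS15 in 7 and RPL7A in 6. The remaining 10 passed in 2 to 5 of these fits. The number of members called lower was 37 without siCtrl replicate 1, 8 without siCtrl replicate 3, and 5, 7 and 4 without siUSP9X replicates 1, 3 and 5. siCtrl replicate 1 was the lowest siCtrl library for 43 of the 79 members and siCtrl replicate 2 the highest for 74, while siUSP9X replicate 4 was the highest siUSP9X library for 67. The members thus moved together from library to library within a group, and they are not independent counts of the effect.

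In siUSP9X replicate 2 the members did not fall evenly. It was the lowest siUSP9X library for 74 of 79 members, and the median member stood at -1.12 on the log2 scale relative to the siCtrl mean. Sorted by the GC content of their transcripts, the 26 members with the lowest GC content (42.3 to 47.5%) stood at a median of 64.1% of the other 4 siUSP9X libraries, the 27 in the middle at 53.4% and the 26 with the highest GC content (52.3 to 62.4%) at 40.6%. Across the 79 genes, Pearson's r between GC content and the log2 ratio of siUSP9X replicate 2 to the other siUSP9X libraries was -0.675 and Spearman's rho was -0.65, as a description within 1 library over genes that are not independent. Transcript length had an r of 0.122. The extremes, picked after their values were seen, were RPL36, with 21.4 CPM in siUSP9X replicate 2 and 122 to 156 CPM in replicates 1, 3, 4 and 5, and RPS3A, with 574 CPM and 555 to 615 CPM. RPS3A and RPL36 encode a small-subunit and a large-subunit protein of the same particle.

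Tested genes other than members also stood lower in siUSP9X replicate 2 at higher GC content, but over another range. Their median was 164% of the other siUSP9X libraries at a GC content under 42%, 135% from 42 to 46%, 108% from 46 to 50%, 88.2% from 50 to 54%, 71.9% from 54 to 58% and 57.0% at 58% or more. The members with the lowest GC content thus stood at 64.1%, where other genes of 42 to 46% GC stood above 100%. By transcript length, genes other than members stood at 65.4% under 1000 bases and at 167.5% at 5000 bases or more. The difference between members and other genes was not tested. When smooth trends on transcript length and GC content were removed from each library, the median log2 fold change of the members with all libraries was -0.17 in place of -0.35, and 10 members were called lower in place of 0. Without siUSP9X replicate 2 the same correction gave a median of -0.11 in place of -0.20 and 23 lower calls in place of 18. Short genes that are not members (under 1000 bases) had a median of -0.068 without siUSP9X replicate 2, with 11.3% of them called lower, and a median of -0.17 with all libraries.

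FAU and RACK1, ribosomal proteins whose symbols fall outside the naming pattern, were read alongside. FAU, a fusion that yields the small-subunit protein eS30, had 167, 42.7, 167, 202 and 149 CPM in siUSP9X, against 193, 309.7, 271, 246 and 241 CPM in siCtrl. It fell by 0.55 on the log2 scale without siUSP9X replicate 2, about as far as RPS21, with an edgeR adjusted p of 0.00174. With all libraries FAU had -0.79 ± 0.32, with an edgeR adjusted p of 0.139. RACK1, the small-subunit scaffold, had -0.18 ± 0.08 (edgeR adjusted p 0.105) without siUSP9X replicate 2 and -0.16 ± 0.09 (adjusted p 0.283) with it. RACK1 had 1416 CPM in siUSP9X replicate 2, 1258 to 1376 CPM in the remaining siUSP9X libraries and 1338 to 1709.8 CPM in siCtrl, and so did not share the drop of that library. Of 4 further paralogs outside the pattern (RPL22L1, RPL26L1, RPL7L1 and RPL36AL), edgeR, DESeq2 and limma-voom called 0 both with and without siUSP9X replicate 2, limma-voom with library weights called 1 lower, and 1 had an unadjusted p under 0.05 in edgeR.

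The elongation factors and other mRNAs with a TOP start moved less than the ribosomal protein genes. Without siUSP9X replicate 2, 1 of 17 tested fell and 0 rose, where 11.5% of all tested genes fell and 11.9% rose. The median log2 fold change of this list was -0.05, where the members had -0.20, and with all libraries -0.07, where the members had -0.35. EEF1B2, an exchange factor for eEF1A, was that gene, with 346, 224, 353, 368 and 343 CPM in siUSP9X, against 387, 519, 443, 411 and 401 CPM in siCtrl and a log2 fold change of -0.29 ± 0.08 (edgeR adjusted p 0.0154), and with all libraries -0.41 ± 0.14 (adjusted p 0.103). EEF1A1, which brings aminoacyl-tRNA to the ribosome, had 0.04 ± 0.07, EEF2, the translocase, -0.05 ± 0.08, and TPT1, -0.12 ± 0.08, none past the threshold. With all libraries these were 0.10 ± 0.10, -0.07 ± 0.10 and -0.17 ± 0.11, none past the threshold. Host genes of small nucleolar RNAs with a TOP start had a median of -0.20 over 10 tested, with 0 called by edgeR, 4 at an unadjusted p under 0.05, 1 called lower by DESeq2, 0 by limma-voom and 4 called lower by limma-voom with library weights. With all libraries their median was -0.38. The difference between these lists and the ribosomal protein genes was not tested.

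**Figure D4:**
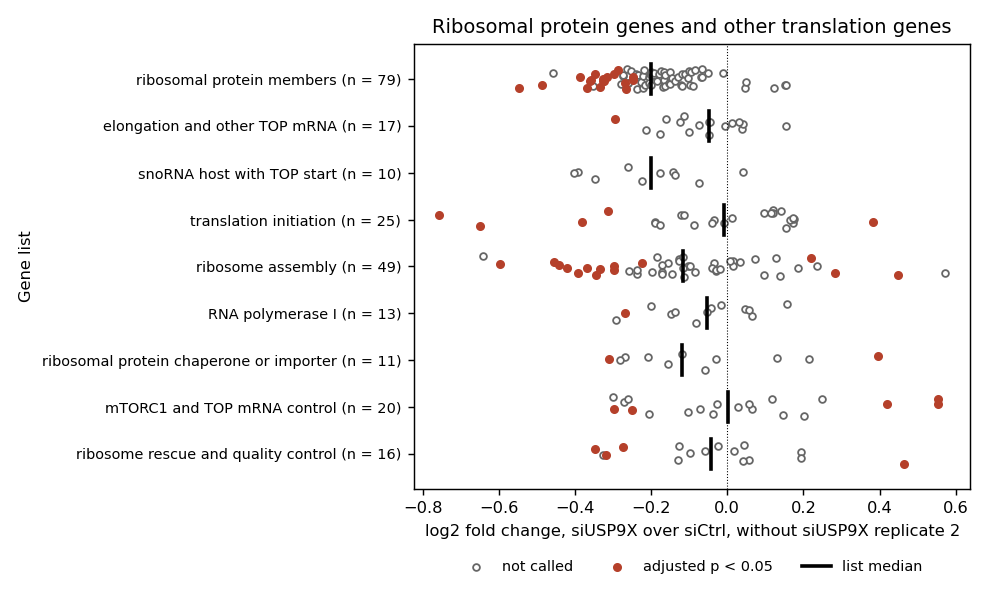
Log2 fold change of siUSP9X over siCtrl without siUSP9X replicate 2 (horizontal axis) for the 79 tested members and 8 lists of related genes (rows), 1 point per gene, filled where adjusted p is under 0.05, with the list median as a bar. The bar of the members is at -0.20, as is that of the snoRNA host genes, and the bars of the other lists lie between -0.12 and 0.0017.

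The factors that make and use ribosomes moved in both directions without siUSP9X replicate 2, in a fit that called 11.9% of all tested genes higher and 11.5% lower. Of 49 ribosome assembly factors 3 rose and 11 fell, with a median of -0.12, and the share that fell was above that of all genes. BOP1, of the complex that matures the large-subunit rRNA, had 171, 117, 162, 194 and 175 CPM in siUSP9X, against 199, 309.7, 284, 279 and 258 CPM in siCtrl, and fell by 0.60 on the log2 scale (edgeR adjusted p 0.000403). The nucleolar protein NCL (-0.37) and the helicase DDX18 (-0.44) also fell, while the helicase DDX10 rose by 0.45. Of 13 RNA polymerase I genes 1 fell, POLR1C (-0.27), and 0 rose. Among 11 chaperones and importers of ribosomal proteins, the importer TNPO1 rose (0.40) and HEATR3, which helps RPL5 into the nucleus, fell (-0.31). In TNPO1, DDX10, DDX18, NCL and HEATR3 siUSP9X replicate 2 was the highest siUSP9X library, and for the last 3, which fell, it lay within or above the siCtrl range. NCL had 1134 CPM there, 787 to 887 CPM in the other siUSP9X libraries and 974 to 1261 CPM in siCtrl, and HEATR3 had 68.1, 45.4 to 49.3 and 54.5 to 66.2 CPM.

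Among 25 initiation factors 1 rose and 4 fell, with a median of -0.0077. EIF3I, a subunit of eIF3, had 269, 187, 281, 276 and 272 CPM in siUSP9X, against 395, 480.1, 422, 450.3 and 409 CPM in siCtrl, and fell by 0.65 on the log2 scale (edgeR adjusted p 5.2e-06). EIF1AX, a scanning factor, fell by 0.76 (edgeR adjusted p 2.7e-05), EIF5A by 0.38, and EIF5B, which joins the subunits, rose by 0.38. Of 20 genes of mTORC1 and TOP mRNA control, 3 rose and 2 fell, close to the shares of all tested genes. EIF4EBP2, a translation repressor that mTORC1 inactivates, rose by 0.55 (edgeR adjusted p 6.02e-05), with 133, 259, 133, 127 and 146 CPM in siUSP9X, against 102, 84.2, 90.8, 88.9 and 93.7 CPM in siCtrl. TSC1, an mTORC1 inhibitor, rose by 0.55, RPS6KB1, an S6 kinase, rose by 0.42 and RPS6KA1, an S6 kinase of the RSK family, fell by 0.30. LARP1 had 0.20 ± 0.08 (adjusted p 0.0792). Of 16 genes of ribosome rescue and quality control 1 rose and 3 fell, namely NEMF (0.46), which rose, and USP10 (-0.35), ASCC2 (-0.27) and MAP3K20 (-0.32), which fell.

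With all 10 libraries, where 4.09% of all tested genes were called higher and 3.22% lower, fewer genes of these lists passed. Of the assembly factors 1 rose and 3 fell, of the initiation factors 0 rose and 2 fell, of the mTORC1 list 2 rose and 0 fell, and in the TOP mRNA, RNA polymerase I, chaperone, snoRNA host and rescue lists edgeR called 0. In those 5 lists 1, 2, 3, 1 and 2 genes had an unadjusted p under 0.05. DESeq2 called 1 lower in the TOP mRNA list, 1 lower in the RNA polymerase I list, 1 higher in the chaperone list, 1 higher and 1 lower in the rescue list and 0 in the snoRNA host list, and limma-voom called 0 in all 5. With library weights limma-voom called 1 higher and 2 lower in the TOP mRNA list, 3 lower in the RNA polymerase I list, 2 higher and 2 lower in the chaperone list, 4 lower in the snoRNA host list and 2 higher and 4 lower in the rescue list. Of the genes named from these lists, BOP1 (-0.70), DDX10 (0.60), EIF3I (-0.75), EIF5A (-0.43), EIF4EBP2 (0.80) and TSC1 (0.78) passed in both edgeR fits. The others lost their call with all libraries. Their edgeR adjusted p was then 0.156 for NCL, 0.294 for DDX18, 0.11 for POLR1C, 0.0968 for TNPO1, 0.324 for HEATR3, 0.0643 for EIF1AX and 0.124 for EIF5B. It was 0.0648 for RPS6KB1, 0.0636 for RPS6KA1, 0.0887 for NEMF, 0.243 for USP10, 0.0758 for ASCC2 and 0.839 for MAP3K20. siUSP9X replicate 2 was also the highest siUSP9X library in EIF1AX, EIF5B, EIF4EBP2, TSC1, RPS6KB1, NEMF, USP10 and MAP3K20.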

How the data were processed

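The authors deposited raw counts, 1 whole number per gene row and library, for 10 stranded mRNA libraries. RSEM, DESeq2 and hg38 are named, with no role, in the submitters' processing notes. The annotation, and whether the counts are rounded RSEM estimates, are not given in the sources used here. Reads shared with pseudogenes may thus have been split before deposit. Members and gene lists were chosen with earlier results of these data known.

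Counts were tested with edgeR 4.0.16 in R 4.3.3 (glmQLFit with robust estimation, glmQLFTest, TMM factors, filterByExpr with a minimum count of 10, group as the only term), two-sided, with Benjamini-Hochberg adjustment over all tested genes and a threshold of 0.05, once with all libraries and once without siUSP9X replicate 2. Standard errors are the log2 fold change divided by the square root of the F statistic. CPM are counts per 1000000 of the TMM-scaled library total. Lengths, GC content and coordinates are from GENCODE 29 (GRCh38), which matched 96.91% of rows to 1 gene, and transcript starts from RefSeq. Alternatives used DESeq2 1.42.0, limma 3.58.1, other scalings and filters, the replicate block, trends on length and GC content, counts summed with pseudogene rows, and each library left out. The edgeR step was tested on simulated data with known changes. With all libraries it called, with the right sign, 0 of 50 genes changed 1.25-fold, 1 of 49 at 1.5-fold and 27 of 46 at 2-fold. Without siUSP9X replicate 2 these were 5 of 49, 34 of 49 and 48 of 50.

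Members are named if they passed in either fit, if listed for known roles, if among the 5 highest or the lowest in CPM, or if at the extremes of fold change. Other genes are named up to 4 per list by smallest p past the threshold, beside FAU, RACK1, EEF1A1, EEF2, TPT1, LARP1, MDM2 and USP9X. Members named for other reasons are said to be picked after their values were seen, or appear as examples of a described extreme. Some genes that these rules select are left out of the text and the figures. No library pair of a group agreed within sampling noise.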

Additional observations from a re-analysis of the deposited data

Results flagged for a closer look

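Dixon's test for 1 value that stands apart from the others of its group marked 23 of 78 groups of 5 libraries, and in 21 of these the value was that of siUSP9X replicate 2. That library was set aside for its low ribosomal share, so these 21 marks restate that choice. They are given as a description, and the rate of about 1 in 20 groups that chance marks is no yardstick for them. The groups are also not independent, since ribosomal protein genes moved together in each library. In siUSP9X replicate 2 the share of counts in ribosomal protein genes was 2.12%. The same library stood low for large-subunit and stalk genes, with 530.9 CPM for RPL10, 706.3 for RPL13, 143.6 for RPL22, 721.8 for RPL3, 589.2 for RPL5, 515.2 for RPL7A, 471.2 for RPL8, 1163 for RPLP0, 146.9 for RPLP1 and 50.43 for RPLP2. Among small-subunit genes it had 246.3 CPM for RPS15, 171.7 for RPS19, 411.5 for RPS2, 162.7 for RPS25, 339.3 for RPS27A, 506.6 for RPS3, 854.1 for RPS4X, 298.0 for RPS6, 138.5 for RPS9 and 707.0 for RPSA. In the other direction, siCtrl replicate 2 stood high in its group with 850.3 CPM for RPL11 and 698.5 CPM for RPS6. RPS21, RPS28 and RPS27L, which fell without siUSP9X replicate 2, had no library marked in either group.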

How the results depend on the processing

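With all libraries, 0 members were called lower, and the count became 3 with DESeq2, 3 with the GC content trend removed, 2 with the length trend removed, 10 with both removed and 37 with library weights in limma-voom. Leaving out 1 library gave 0 to 18 lower calls, 18 of them without siUSP9X replicate 2 and 1 without siUSP9X replicate 4. The median log2 fold change kept its sign in every alternative but the scaling to ribosomal protein counts, where it was 0.0119 with all libraries and 0.0106 without siUSP9X replicate 2, as that scaling sets the sum of the members equal in every library. Without siUSP9X replicate 2, where 18 were called lower, the count was 40 with library weights, 29 with no filter, 1 with the ribosomal scaling (and 1 higher), 4 at an adjusted p under 0.01, and 4 to 37 when 1 further library was left out. Deviations from the group means correlated between -0.42 and 0.23 for libraries of the same number. Those means include siUSP9X replicate 2, and siUSP9X replicates 1, 3, 4 and 5 all correlated negatively with siCtrl replicate 1 (-0.31 to -0.52). The check therefore cannot decide whether replicate numbers pair the libraries. The replicate block called 0 members with all libraries, and over all genes it called 34 higher and 57 lower in place of 570 and 449. Without siUSP9X replicate 2 the block also left out siCtrl replicate 2, to keep complete pairs of numbers, and called 17 members lower. The fit with no block on those same libraries called 13 lower. Of 898 alternative values for 36 named members with all libraries, 816 kept direction and side, 54 became called and 28 changed sign, with causes not tested. Under the ribosomal scaling these were RPL10 (0.032), RPL10A (0.131), RPL11 (0.035), RPL23 (0.295), RPL3 (0.111), RPL39 (0.201), RPL5 (0.171), RPL9 (0.01), RPS26 (0.012), RPS27A (0.02), RPS27L (0.033), RPS4X (0.229) and RPS6 (0.122). With the length trend removed RPL23 became 0.1 and RPL39 0.024, and with pseudogene rows summed RPS10 became -0.029. RPL22, at 0.01, became -0.009 with upper-quartile factors, -0.014 with no filter, -0.009 with limma-voom, -0.006 with the replicate block, -0.097 with the GC content trend removed, -0.03 with pseudogene rows summed and -0.04 to 0.123 in the fits without 1 library, below 0 in 6 of them. Trends on GC content and sums with pseudogene rows were chosen after seeing the data, and summing gave 0 lower calls with all libraries and 17 without siUSP9X replicate 2. With 5 libraries a group and 1 deviating, small changes of single members cannot be resolved at this spread between libraries.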
